A study of Mus musculus with 12 samples.

Results

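The natriuretic peptide system was followed in mouse hearts through 7 genes chosen by name: the ligand genes Nppa and Nppb, the receptor genes Npr1, Npr2 and Npr3, and the genes of the processing proteases Corin and Furin. All 7 were found among the 13552 genes of the expression table, and all 7 were among the 11240 genes tested. RNA was measured by sequencing in 12 hearts, 3 from each of 4 groups of male mice aged 8 to 10 weeks. Wild-type (WT) mice were C57BL/6J, and knock-in (KI) mice were homozygous for Bcl-xL S14A in every cell of the body. In this allele serine 14 of Bcl-xL, a survival protein of the Bcl-2 family, is replaced by alanine, which cannot be phosphorylated. The knock-in line came from 3 independent embryonic stem cell clones and was crossed back to C57BL/6J. Per the study's methods WT mice were bought from a supplier, so genotype and origin of the mice cannot be told apart, and RNA levels cannot check the codon. Mice of each genotype underwent either transverse aortic constriction (TAC), in which the aorta is tied to a narrower bore so that the left ventricle pumps against a higher pressure, or a sham operation without the tie. Hearts were taken 9 h later in all 4 groups, which are called WT sham (mice 1, 2 and 3), WT TAC (mice 7, 9 and 10), KI sham (mice 1, 2 and 3) and KI TAC (mice 5, 6 and 7).

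Natriuretic peptides are hormones that heart muscle cells release when the chamber wall is stretched. They act on blood vessels and kidney to lower blood volume and pressure, and within the heart they restrain growth and fibrosis. The peptides are made as inactive precursors: corin, a protease on the surface of heart muscle cells, cuts the atrial precursor, and furin, a protease of the secretory pathway, cuts the B-type precursor. The signalling receptors carry a guanylyl cyclase domain and make cyclic GMP, and the clearance receptor removes the peptides from the circulation. Atrial muscle makes the atrial peptide throughout life, whereas the adult ventricle makes little of it until it is loaded, so that both ligand genes serve as markers of ventricular stress.

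Levels are given in RPKM, a unit inferred from the values, the reads of a gene scaled to the length of its exons in kilobases and to the reads on genes of its library, so that genes can be compared with each other per length. The depth recovered from the values was 23650230 to 32455276 reads on genes per heart. Cardiomyocyte markers were abundant in every heart, as the summed level of 6 of 6 markers was 13043 to 22863 RPKM, and the ventricular markers Myl2, Myl3, Irx4 and Hey2 summed to 1822 to 4657 RPKM. Of 6 atrial markers, Dkk3 and Kcnj5 could be summed, at 5.36 to 22.4 RPKM over the 12 hearts; Myl7, Myl4, Sln and Bmp10 were not analysed here. WT TAC heart 10 stood apart by its fibroblast markers, whose sum over 6 of 6 markers was 610 RPKM, against 92.2 to 271 RPKM in the other hearts.

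Nppa and Nppb lie in tandem on mouse chromosome 4 of GRCm38, both on the plus strand. Nppb (ENSMUSG00000029019) occupies bases 147985788 to 147987205, and Nppa (ENSMUSG00000041616) occupies bases 148000722 to 148002079, with a gap of 13516 bases between them. Their promoters are shown because these are the members whose RNA rose after TAC. The 250 bases before each RefSeq start (GRCm38.p6, plus strand) are written 5′ to 3′ in lower case, and the capitals mark matches on either strand to short motifs of factors known to act on these genes. The Nppa window is chr4:148000472-148000721 and the Nppb window is chr4:147985650-147985899; the annotation that gave exon lengths starts Nppb upstream of its RefSeq start, inside this window.
Nppa: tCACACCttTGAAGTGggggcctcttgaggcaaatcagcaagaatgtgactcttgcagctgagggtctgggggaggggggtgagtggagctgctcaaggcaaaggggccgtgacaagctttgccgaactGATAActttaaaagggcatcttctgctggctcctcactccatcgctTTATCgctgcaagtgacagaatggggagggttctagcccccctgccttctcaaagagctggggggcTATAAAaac
Nppb: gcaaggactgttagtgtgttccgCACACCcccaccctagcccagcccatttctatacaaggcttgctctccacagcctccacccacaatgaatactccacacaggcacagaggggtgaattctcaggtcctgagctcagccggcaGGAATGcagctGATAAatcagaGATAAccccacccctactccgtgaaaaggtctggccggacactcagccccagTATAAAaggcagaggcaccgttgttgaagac

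The motif GATAA, bound by GATA4 and its relatives, was found 2 times in each window. In the Nppa window it lay at -121 to -117 on the plus strand and at -75 to -71 on the minus strand, where it reads TTATC, counted back from -1 at the last base before the start. In the Nppb window both copies were on the plus strand, at -94 to -90 and at -83 to -79. Among 32851 promoter windows of the same length, 22.6% held GATAA at least 1 time and 4.28% held it 2 or more times. The T-box motif GGTGTG, read as CACACC on the minus strand, was found in both windows and in 16.3% of all windows. TNAAGTG, the motif of NKX2-5 and its relatives, was found as TGAAGTG in the Nppa window alone of the pair and in 10.1% of all windows. GGAATG, the MCAT motif of TEAD factors, was found in the Nppb window alone of the pair and in 12.6% of all windows. TATAAA stood at -9 to -4 in the Nppa window and at -31 to -26 in the Nppb window, and 12.4% of all windows held it. Neither window held the AP-1 motif TGANTCA, present in 6.75% of all windows. Neither held the strict CArG box of serum response factor, CCWWWWWWGG with W for A or T, present in 1.47%. Looser forms of this box were not searched, and CTTTAAAAGG, which differs from it in the second base, follows the first GATAA of the Nppa window. None of the motif matches overlapped another in these windows. Of the other members, Corin had a T-box match, and Furin an NK2 and a TATA match, in their windows.

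In WT sham hearts Nppb was the most abundant member, with a mean of 154 RPKM ± 123 (SD, n = 3), and ranked 209 among the 13552 genes. Corin (71.1 RPKM), Furin (57.6 RPKM), Npr2 (52.0 RPKM) and Nppa (50.4 RPKM) followed, and their ranges over the 3 hearts overlapped from each to the next, as did those of Nppb and Corin. Npr1 (17.4 RPKM) lay below Nppa without overlap, and Npr3 (1.76 RPKM) lay far below Npr1 in every heart. KI sham hearts gave the same order of means, from Nppb at 111 RPKM to Npr3 at 1.30 RPKM. After TAC the 2 ligands led the order in both genotypes. In WT TAC hearts the lowest Nppb (900.3 RPKM) was above the highest Nppa (758 RPKM), and Nppb ranked 21 and Nppa 48 among all genes. In KI TAC hearts Nppb ranked 22 and Nppa 315, and the range of Nppa overlapped that of Furin.

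**Figure D1:**
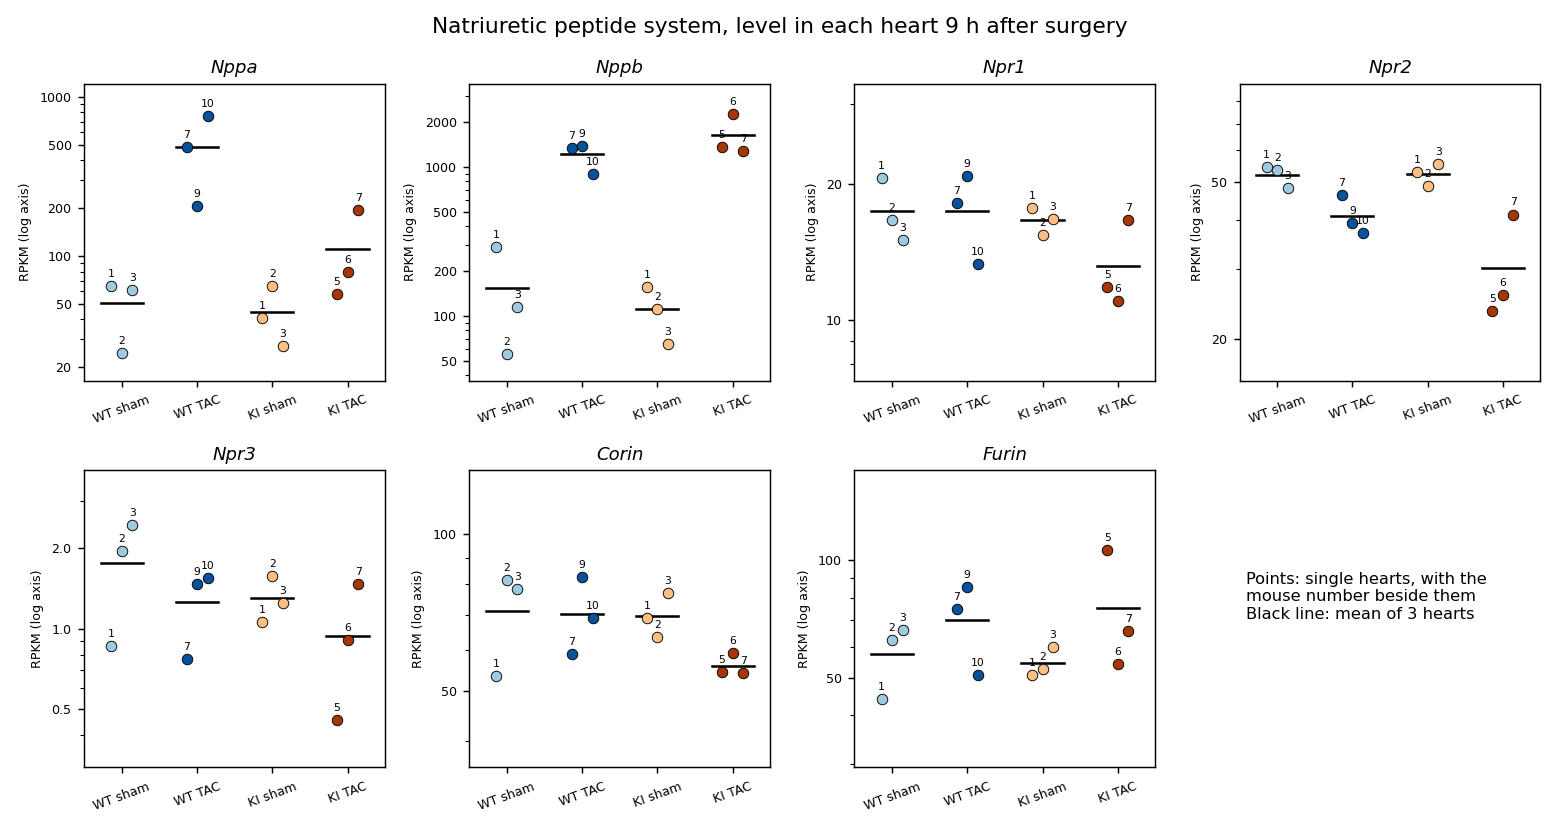
Level of each of the 7 genes in each of 12 hearts, in RPKM on log axes, by group; points are single hearts labelled with the mouse number, and black lines are means of 3 hearts. The 3 WT TAC hearts lie above the 3 WT sham hearts for Nppa and Nppb, whereas the KI TAC hearts lie above the KI sham hearts without overlap for Nppb but not for Nppa, and KI TAC hearts 5 and 6 have the lowest Npr2.

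The first question was how the ligand genes responded to pressure in hearts with normal Bcl-xL. Nppa, the gene of the atrial natriuretic peptide precursor, was 65.3, 24.7 and 61.2 RPKM in WT sham hearts 1, 2 and 3, and 483, 207 and 758 RPKM in WT TAC hearts 7, 9 and 10. Nppb, which encodes the precursor of B-type natriuretic peptide, was 292, 55.1 and 115 RPKM in the same sham hearts, and 1345, 1387 and 900.3 RPKM in the same TAC hearts. Every WT TAC heart was above every WT sham heart for both genes, and the order of the 3 TAC hearts differed between the genes, since heart 10 was the highest for Nppa and the lowest for Nppb. On the scale of log2(RPKM + 1), Nppa rose by 3.16 ± 0.53 (SE), an 8.96-fold change with an adjusted p of 0.00263 from limma. Nppb rose by 3.26 ± 0.48, a 9.60-fold change with an adjusted p of 0.0011. These were 2 of the 7 members past the threshold of an adjusted p of 0.05, where 11.6% of all genes tested passed it, 6.96% as higher and 4.6% as lower. In bulk RNA, a change in the number of cells of a type and a change in the RNA of each cell cannot be told apart.

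In KI hearts Nppb rose and Nppa did not pass the threshold. Nppb was 156, 112 and 64.5 RPKM in KI sham hearts 1, 2 and 3, and 1353, 2261 and 1278 RPKM in KI TAC hearts 5, 6 and 7. The groups did not overlap, and Nppb rose by 3.91 ± 0.48 on the log2 scale, a 15.0-fold change with an adjusted p of 0.000181 from limma. Nppa was 41.1, 65.2 and 27.1 RPKM in the KI sham hearts, and 57.8, 80.0 and 195 RPKM in the KI TAC hearts. KI TAC heart 5 lay below KI sham heart 2, so the groups overlapped, and the log2 fold change of Nppa was 1.19 ± 0.53, with a 95% interval of 0.05 to 2.33 and an adjusted p of 0.119, short of the threshold. Over the alternatives it was 0.69, without KI TAC heart 7, to 1.56, without KI TAC heart 5, with an adjusted p of 0.0626 to 0.372. The members past the threshold in KI hearts were Nppb, which was higher, and Npr2, which was lower, that is 2 of 7, where 23.3% of all genes passed it (8.57% as higher and 14.7% as lower).

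The second question was whether the loaded hearts of the 2 genotypes differed in these RNAs. Nppa was lower in KI TAC hearts, the highest of which (heart 7, 195 RPKM) was just under the lowest WT TAC heart (heart 9, 207 RPKM). The KI TAC hearts were lower by -2.12 ± 0.53 on the log2 scale, with an adjusted p of 0.0251 in limma. This was the only member past the threshold in the comparison of KI TAC with WT TAC, 1 of 7, where 11% of all genes passed it, 8.13% as lower and 2.92% as higher. This background of 1242 genes rested on single hearts too. Without WT TAC heart 7 it was 162 genes, and without WT TAC heart 10 it was 797. Without KI TAC heart 5 it was 646, and without KI TAC heart 6 it was 186. The count rose to 1592 without WT TAC heart 9 and to 1822 without KI TAC heart 7. In a fit of the 2 groups alone it was 216. How all called genes split depended on the scaling of the libraries: the share that were higher was 26.4% with the deposited values, 46.0% after quantile normalization and 58.6% after median-ratio scaling here, 36.8%, 48.3% and 55.0% in KI hearts, and 60.2%, 48.1% and 50.2% in WT hearts. The call of Nppa held under both scalings, was lost in a fit of the 2 groups alone (adjusted p = 0.0682) and rested on single hearts. Without WT TAC heart 7 the log2 fold change was -2.02 (adjusted p = 0.103), without WT TAC heart 10 it was -1.70 (0.0776), without KI TAC heart 5 it was -1.75 (0.0792), and without KI TAC heart 6 it was -1.98 (0.102). Nppb did not pass the threshold in this comparison, at 0.41 ± 0.48 with a 95% interval of -0.63 to 1.44 and an adjusted p of 0.597.

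Whether the response to TAC itself differed between genotypes was tested with the interaction term, the KI response minus the WT response. For Nppa it was -1.97 ± 0.75, with a 95% interval of -3.58 to -0.37, an unadjusted p of 0.0197 and an adjusted p of 0.255. For Nppb it was 0.64 ± 0.68, with a 95% interval of -0.83 to 2.11 and an adjusted p of 0.666, and it was 0.02 without WT sham heart 1, 0.30 without KI sham heart 3, 0.38 without KI TAC heart 6, 0.21 under quantile normalization and 1.21 without WT sham heart 2. None of the 7 members passed the threshold for the interaction by limma, and 0% of all genes did; at an unadjusted p under 0.05 there was 1 member and 1668 of 11240 genes, and limma-voom on recovered reads also called 0 members. The count of 0 genes became 240 without WT TAC heart 9, 182 without KI TAC heart 7 and 8 without WT TAC heart 10, with 0 members called each time. A difference between the genotypes in the response of either ligand was therefore not established by this test, and the width of the intervals leaves room for differences of over 1 log2 unit in either gene.

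**Figure D2:**
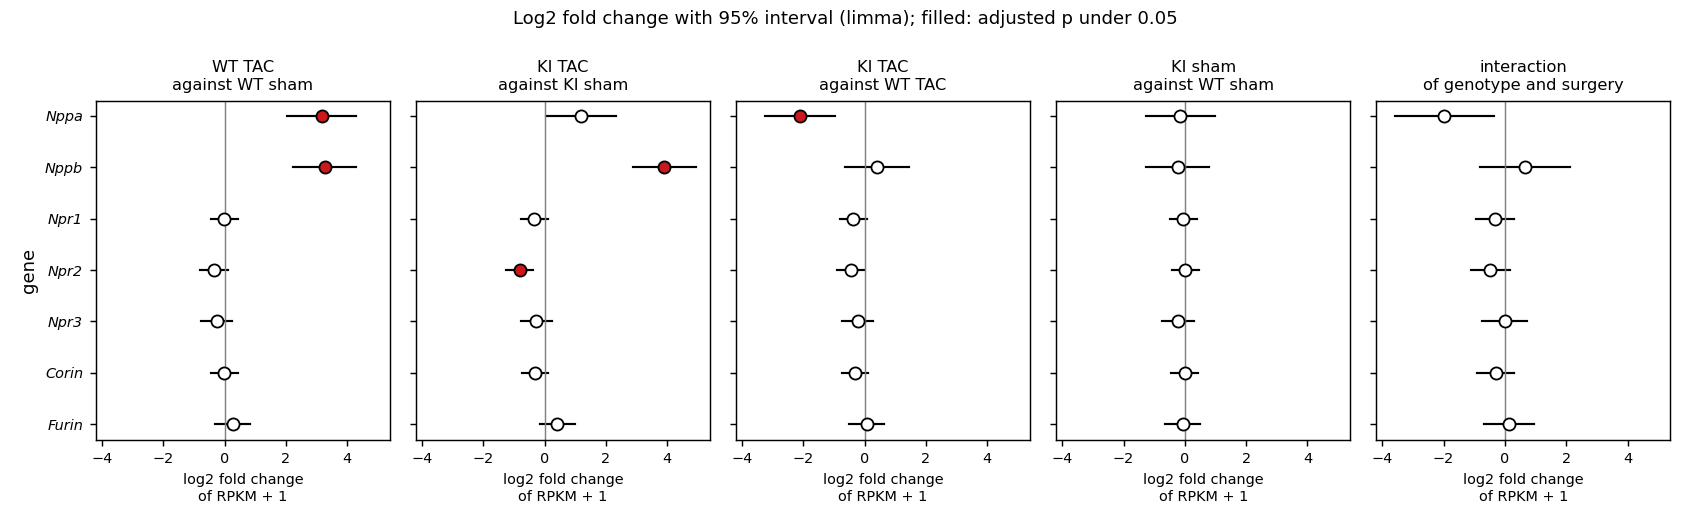
Log2 fold change of RPKM + 1 for the 7 genes in 4 comparisons and in the interaction of genotype and surgery; circles are estimates, lines are 95% intervals from limma, and filled circles have an adjusted p under 0.05. Filled circles are Nppa and Nppb in WT, Nppb and Npr2 in KI, and Nppa in KI TAC against WT TAC; the intervals of the ligands are wider than those of the receptors and proteases.

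The proportion of the 2 ligand RNAs within a heart is given as a description. The RPKM of Nppb divided by that of Nppa was 4.47, 2.23 and 1.87 in WT sham hearts and 3.80, 1.72 and 2.38 in KI sham hearts. It was 2.78, 6.70 and 1.19 in WT TAC hearts 7, 9 and 10, a range that included all 6 sham hearts. In KI TAC hearts 5, 6 and 7 it was 23.4, 28.3 and 6.57. Hearts 5 and 6 of the KI TAC group were above every other heart, and heart 7 was just under WT TAC heart 9. On the scale of log2(RPKM + 1), the mean of Nppb minus Nppa was greater by 2.72 after TAC in KI hearts and by 0.10 in WT hearts. Over the alternatives this difference was 2.32 to 3.37 in KI hearts and -0.53 to 0.72 in WT hearts, where its sign turned. Over the 12 hearts, the Pearson correlation of log2 Nppa with log2 Nppb was 0.69, and 0.25 once group means had been removed, with the 12 points sharing their groups of 3.

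**Figure D3:**
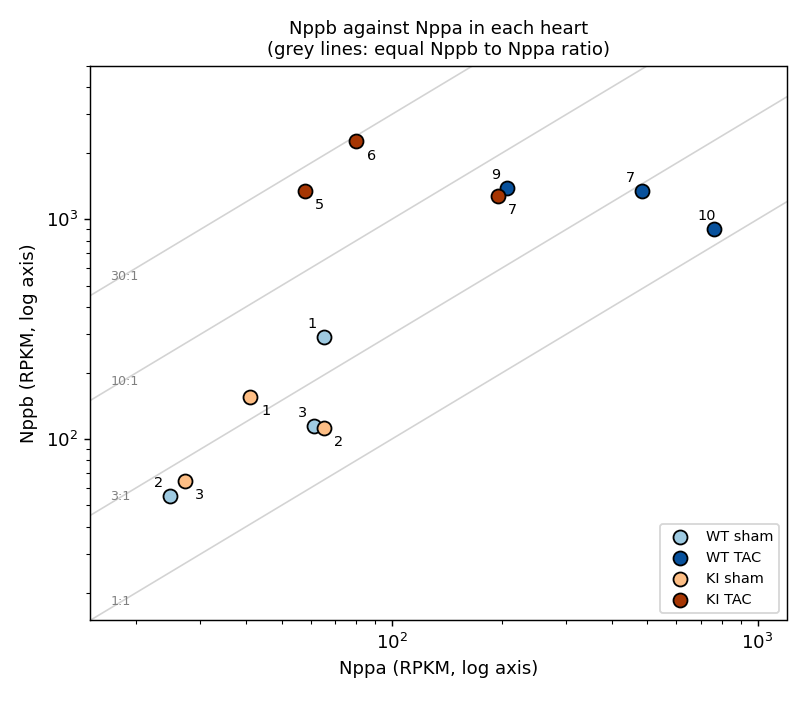
RPKM of Nppb against RPKM of Nppa in each of 12 hearts, on log axes, coloured by group and labelled with the mouse number; grey lines join points of equal ratio of Nppb to Nppa. KI TAC hearts 5 and 6 lie near the line of 30 to 1, whereas KI TAC heart 7 lies beside WT TAC heart 9, at ratios of 6.57 and 6.70.

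Markers of other cell types are given beside Nppa in the loaded hearts. The summed fibroblast markers were 271, 134 and 610 RPKM in WT TAC hearts 7, 9 and 10, the same order as Nppa, and 92.2, 106 and 168 RPKM in KI TAC hearts 5, 6 and 7, again the same order as Nppa. Col1a1 was 461 of the 610 RPKM in WT TAC heart 10 and 43.1 of the 106 RPKM in KI TAC heart 6. Taken singly, the markers had the order of Nppa in the WT TAC hearts except Dcn (36.8, 43.5 and 43.3 RPKM), and in the KI TAC hearts except Col1a1 (47.3, 43.1 and 85.2 RPKM) and Lum (4.57, 5.65 and 5.12 RPKM). Between KI TAC and WT TAC hearts 0 of the 6 fibroblast markers passed the threshold by limma or limma-voom, and 3 had an unadjusted p under 0.05. Macrophage markers (5 of 5) summed to 59.4, 47.8 and 87.3 RPKM in the WT TAC hearts, in the order of Nppa, and to 46.5, 38.7 and 50.2 RPKM in the KI TAC hearts, in another order. Of the 4 macrophage markers tested, 2 were lower in the KI TAC group when set against the WT TAC group, beside 8.13% of all genes, namely Adgre1 and Csf1r, by -1.15 (adjusted p = 0.0135 from limma) and -0.91 (adjusted p = 0.00913), with both calls lost in a fit of the 2 groups alone (0.0625 and 0.0526) and without KI TAC heart 6 (0.0622 and 0.05). The sum of the 2 atrial markers with values was 16.9 to 22.4 RPKM in WT sham, 8.45 to 18.0 RPKM in WT TAC, 15.8 to 18.2 RPKM in KI sham and 5.36 to 6.38 RPKM in KI TAC hearts. Kcnj5, a potassium channel gene that made up most of this sum, fell in KI hearts by 1.39 on the log2 scale (adjusted p = 0.000497 from limma) and was lower by -0.96 in KI TAC hearts when set against WT TAC hearts (adjusted p = 0.0146), the latter call being lost without WT TAC heart 7 (0.0764) or KI TAC heart 6 (0.0695) and in a fit of the 2 groups alone (0.0647). The ventricular markers summed to 2872 to 4262 RPKM in WT sham, 1822 to 2136 RPKM in WT TAC, 2362 to 4657 RPKM in KI sham and 3245 to 4128 RPKM in KI TAC hearts. The part of tissue make-up in the Nppa and Nppb values was not tested.

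Between the sham groups no member differed past the threshold. The log2 fold changes of KI sham against WT sham ran from -0.24 for Nppb to 0.01 for Npr2, and none of the 7 members, against 0.0178% of all genes, was past the threshold by limma; 0 members and 37 genes had an unadjusted p under 0.05, and limma-voom called 0 members. The 95% intervals were -1.28 to 0.99 for Nppa and -1.27 to 0.80 for Nppb, and both include a difference of -1. For Npr2 the interval was -0.43 to 0.45, and for Corin it was -0.44 to 0.42.

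The receptors were next compared. Npr1 (ENSMUSG00000027931, chromosome 3, 90450591 to 90465866, minus strand) encodes the guanylyl cyclase that binds the atrial and B-type peptides. Its level was 20.6, 16.6 and 15.0 RPKM in WT sham hearts and 18.1, 20.8 and 13.3 RPKM in WT TAC hearts. In KI sham hearts Npr1 was 17.7, 15.4 and 16.8 RPKM, and in KI TAC hearts it was 11.8, 11.0 and 16.6 RPKM. The groups overlapped in each comparison, and the log2 fold changes were -0.01 ± 0.20 in WT (adjusted p = 0.983) and -0.33 ± 0.20 in KI (adjusted p = 0.255). KI TAC hearts 5 and 6 had the lowest values of the 12.

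Npr2 (ENSMUSG00000028469, chromosome 4, 43631935 to 43651244, plus strand) encodes the guanylyl cyclase that prefers C-type natriuretic peptide. It was the most abundant receptor RNA, at 54.5, 53.4 and 48.2 RPKM in WT sham hearts and 52.9, 48.9 and 55.3 RPKM in KI sham hearts. After TAC it was 46.3, 39.4 and 37.1 RPKM in WT hearts and 23.6, 25.8 and 41.3 RPKM in KI hearts. All 6 TAC hearts were below all 6 sham hearts. Npr2 fell in KI hearts by 0.81 ± 0.21 on the log2 scale (adjusted p = 0.012 from limma), and by 0.71 relative to the median change of all genes in this comparison, which was -0.10. The call was lost without KI sham heart 3 (log2 fold change -0.78, adjusted p = 0.0539) and without KI TAC heart 5 (-0.66, adjusted p = 0.0519). In WT hearts the log2 fold change was -0.34 ± 0.21, with an adjusted p of 0.297. KI TAC and WT TAC hearts overlapped, because heart 7 of the KI TAC group lay among the WT TAC hearts, and the difference of -0.46 ± 0.21 did not pass the threshold (adjusted p = 0.149), except when KI TAC heart 7 was left out (-0.70, adjusted p = 0.0203).

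Npr2 shares 266 exon bases with Gm12473, a gene of 579 exon bases annotated on the opposite strand across its start. The strand setting of the read counting is not given in the sources used here, so the reads of these genes cannot be told apart with certainty. Gm12473 had 51.4% to 153% as many reads as Npr2 in the 12 hearts, and its level was 387 to 516 RPKM in WT sham, 235 to 514 RPKM in WT TAC, 350 to 505 RPKM in KI sham and 107 to 231 RPKM in KI TAC hearts. It fell in KI hearts by 1.38 on the log2 scale (adjusted p = 0.00827 from limma), with an adjusted p of 0.00638 to 0.0404 over the alternatives. In WT hearts its log2 fold change was -0.21 (adjusted p = 0.703). Between KI TAC and WT TAC hearts Gm12473 was lower by -1.23 (adjusted p = 0.0309 from limma), a call lost in 6 of 13 alternatives (adjusted p up to 0.143).

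Npr3 (ENSMUSG00000022206, chromosome 15, 11839896 to 11907287, minus strand) encodes the clearance receptor, which takes up natriuretic peptides and lacks the cyclase. It was the least abundant member, at 129 to 562 reads per heart, and reached 1 RPKM in 8 of the 12 hearts. In WT hearts its level was 0.86, 1.96 and 2.45 RPKM after sham surgery and 0.77, 1.47 and 1.55 RPKM after TAC. In KI hearts it was 1.06, 1.58 and 1.25 RPKM after sham surgery and 0.45, 0.91 and 1.47 RPKM after TAC. Every group overlapped every other, and no log2 fold change passed the threshold (-0.26 ± 0.24 in WT and -0.27 ± 0.24 in KI). At levels near 1 RPKM the added 1 RPKM understates changes, and with 0.1 RPKM added in its place the log2 fold changes were -0.39 in WT and -0.53 in KI, again short of the threshold. The RPKM of Npr3 divided by that of Npr1 was 0.0383 to 0.163 over all 12 hearts, so clearance receptor RNA was the scarcer in each of them.

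Neither protease gene passed the threshold in any comparison. Corin (ENSMUSG00000005220, chromosome 5, 72300025 to 72504473, minus strand) was 53.5, 81.4 and 78.5 RPKM in WT sham hearts, against 58.8, 82.8 and 69.1 RPKM after TAC. In KI sham hearts it was 68.9, 63.4 and 76.9 RPKM, and in KI TAC hearts it was 54.4, 59.0 and 54.1 RPKM. The 3 KI TAC hearts were below the 3 KI sham hearts, but the log2 fold change of -0.31 ± 0.20 did not pass the threshold (adjusted p = 0.281), and in WT it was -0.01 ± 0.20 (adjusted p = 0.987). With a 95% interval of -0.44 to 0.42, a change of Corin in WT hearts beyond 0.44 log2 units in either direction lay outside the interval.

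Furin (ENSMUSG00000030530, chromosome 7, 80388585 to 80405436, minus strand) was 44.2, 62.4 and 66.1 RPKM in WT sham hearts, against 74.7, 85.3 and 50.7 RPKM after TAC. It was 50.6, 52.5 and 59.8 RPKM in KI sham and 106, 54.0 and 65.7 RPKM in KI TAC hearts. The groups overlapped in both genotypes, and the log2 fold changes were 0.27 ± 0.26 in WT (adjusted p = 0.535) and 0.41 ± 0.26 in KI (adjusted p = 0.283). The high mean of the KI TAC group came from heart 5. The RPKM of Corin divided by that of Furin was 1.19 to 1.36 in all 6 sham hearts, 0.79 to 1.36 in WT TAC hearts and 0.51 to 1.09 in KI TAC hearts. The ranges of KI sham and KI TAC hearts for this proportion did not overlap, which is given as a description.

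The relatives of the proteases and the enzymes that degrade the peptides were taken from lists. Pcsk6, which encodes the proprotein convertase PACE4, known to activate corin in heart muscle cells, was 37.4 to 39.5 RPKM in WT sham and 36.4 to 41.7 RPKM in KI sham hearts. It was 15.3, 9.77 and 22.5 RPKM in WT TAC hearts 7, 9 and 10, and 12.6, 13.4 and 9.76 RPKM in KI TAC hearts 5, 6 and 7. All TAC hearts lay below all sham hearts, and Pcsk6 fell by 1.31 ± 0.24 in WT (adjusted p = 0.00379) and by 1.65 ± 0.24 in KI (adjusted p = 0.000427 from limma), with the call kept under every alternative run. The RPKM of Pcsk6 divided by that of Corin was 0.46 to 0.74 in sham hearts and 0.12 to 0.33 in TAC hearts. Of the 4 convertase genes tested beside Furin (Pcsk4, Pcsk6, Pcsk7 and Mbtps1), Pcsk6 was the 1 that passed the threshold in each genotype, beside 4.6% of all genes lower in WT and 14.7% in KI, and none passed it between KI TAC and WT TAC by limma or limma-voom, with 0 at an unadjusted p under 0.05. Their median log2 fold change was -0.20 in WT and -0.19 in KI, beside medians of all genes of 0.04 and -0.10.

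Of the genes for peptide breakdown, Ide and Ece1 were tested and neither passed the threshold in any comparison. Mme, which encodes neprilysin, the main enzyme that degrades natriuretic peptides, was too low to be tested, at 0.21 to 1.05 RPKM over the 12 hearts. Its level was 0.32 to 1.05 RPKM in WT sham and 0.27 to 0.61 RPKM in WT TAC hearts, which overlapped, and 0.67 to 0.90 RPKM in KI sham and 0.21 to 0.28 RPKM in KI TAC hearts, which did not. Nppc, the gene of C-type natriuretic peptide, and Ostn, the gene of a further ligand of the clearance receptor, were not analysed here.

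Downstream of the receptors, 14 genes of cyclic GMP effectors and phosphodiesterases were tested. In WT hearts, where 6.96% of all genes tested were higher, 2 rose, 0 fell and 12 did not pass the threshold, with a median log2 fold change of 0.25 beside 0.04 for all genes. Ppp1r12a, which encodes the myosin phosphatase subunit that cyclic GMP-dependent kinase binds, rose by 0.89 (adjusted p = 0.017), and Vasp, a substrate of that kinase, rose by 0.89 (adjusted p = 0.0358). The call of Ppp1r12a was lost without WT sham heart 1 (adjusted p = 0.0663) and without WT TAC heart 9 (0.065), and that of Vasp without WT sham heart 2 (0.131), WT sham heart 3 (0.125), WT TAC heart 7 (0.147) or WT TAC heart 9 (0.0639) and under median-ratio scaling (0.0587).

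In KI hearts 2 genes of this list rose, 4 fell and 8 did not pass the threshold, with a median of -0.33 beside -0.10 for all genes, of which 8.57% were higher and 14.7% lower. Ppp1r12a rose by 0.89 (adjusted p = 0.00914), and no alternative ended this call. Pde1b, a phosphodiesterase that calcium and calmodulin activate, rose by 0.60 (adjusted p = 0.0192). The call was lost without KI sham heart 2 (0.0546), KI sham heart 3 (0.0637), KI TAC heart 5 (0.0503) or KI TAC heart 7 (0.0628). Since Pde1b was 0.47 to 0.93 RPKM in sham hearts, it entered the test only through TAC hearts, and its call is given as a description. Pln, which encodes phospholamban, the brake on the calcium pump of the sarcoplasmic reticulum, fell by 0.93 (adjusted p = 0.0281), a call lost under median-ratio scaling (0.0629) and without KI sham heart 1 (0.0787), 2 (0.0653) or 3 (0.0555) or KI TAC heart 5 (0.0808) or 7 (0.0915). Abcc5, a cyclic nucleotide exporter, fell by 0.69 (adjusted p = 0.0224), a call lost without KI sham heart 1 (0.0752), KI sham heart 3 (0.0839) or KI TAC heart 5 (0.089). Abcc4, a further exporter, fell by 0.54 (adjusted p = 0.0434), a call lost with no filter on low values (0.051), under median-ratio scaling (0.0583) and without KI sham heart 1 (0.123) or 3 (0.133) or KI TAC heart 5 (0.124) or 6 (0.0874). Pde2a, a phosphodiesterase that cyclic GMP activates, fell by 0.43 (adjusted p = 0.0413), a call lost under quantile normalization (0.1) and median-ratio scaling (0.0696), in a fit of the 2 groups alone (0.073) and without KI sham heart 1 (0.121) or 3 (0.138) or KI TAC heart 5 (0.127) or 6 (0.108). Of the 4 falls, that of Abcc5 alone was thus called under median-ratio scaling.

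Between KI TAC and WT TAC hearts 2 of the 14 were lower and 0 higher, beside 8.13% of all genes lower, and both calls were lost under either scaling and in a fit of the 2 groups alone. Pde3b was lower by -0.52 (adjusted p = 0.0369; 0.0985 under quantile normalization, 0.0725 under median-ratio scaling and 0.112 in a fit of the 2 groups; 0.144 without WT TAC heart 7, 0.102 without WT TAC heart 10, 0.146 without KI TAC heart 6 and 0.0525 without KI TAC heart 7). Pde3a, the main phosphodiesterase of its family in heart muscle, was lower by -0.89 (adjusted p = 0.0381), with the call lost without any 1 of the 6 hearts (0.0578 to 0.0958), under quantile normalization (0.0746), under median-ratio scaling (0.0923) and in a fit of the 2 groups alone (0.0605).

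Soluble guanylyl cyclase and nitric oxide synthase genes give cyclic GMP by a route without natriuretic peptides. Of 4 tested, none passed the threshold in WT hearts by limma or limma-voom, and 0 had an unadjusted p under 0.05. In KI hearts 1 of the 4 fell, beside 14.7% of all genes, namely Gucy1a1, which encodes a subunit of the soluble cyclase, by 0.63 (adjusted p = 0.0205). This call was lost without KI sham heart 1 (0.0697), KI sham heart 3 (0.0657), KI TAC heart 5 (0.0791) or KI TAC heart 6 (0.0507).

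**Figure D4:**
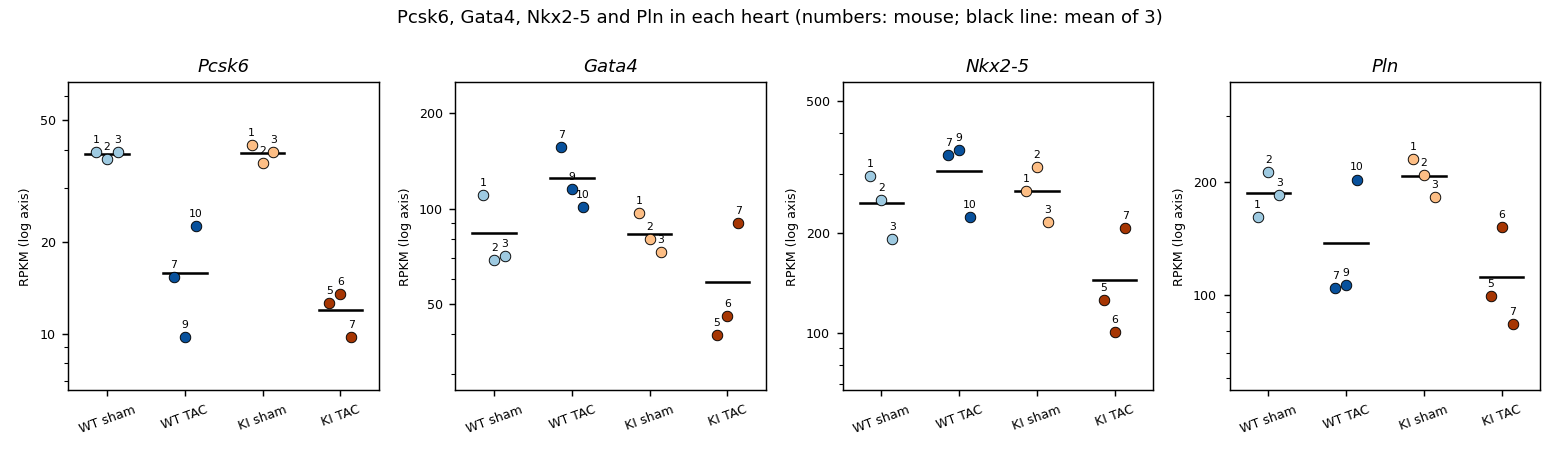
Level of Pcsk6, Gata4, Nkx2-5 and Pln in each of 12 hearts, in RPKM on log axes, by group; points are single hearts labelled with the mouse number, and black lines are means of 3 hearts. Pcsk6 separates all TAC hearts from all sham hearts in both genotypes, and Gata4 and Nkx2-5 are lower in the 3 KI TAC hearts than in the 3 WT TAC hearts.

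Genes of transcription factors known to act on Nppa and Nppb formed a list of 18, all tested. In WT hearts none of the 18 passed the threshold by limma or by limma-voom, where 11.6% of all genes passed it by limma, and 3 had an unadjusted p under 0.05. Their median log2 fold change in WT was 0.22 beside 0.04 for all genes, with 14 of them above 0. In KI hearts 1 fell and 17 did not pass, beside 14.7% of all genes lower, with a median of -0.36 beside -0.10 for all genes. Between KI TAC and WT TAC hearts 2 of the 18 were lower and 0 higher, a share close to the 8.13% of all genes that were lower, with a median of -0.32 beside -0.12 for all genes.

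Gata4, whose product binds the GATAA motif capitalized in both promoters above, was 157, 116 and 101 RPKM in WT TAC hearts 7, 9 and 10, and 39.9, 45.7 and 89.7 RPKM in KI TAC hearts 5, 6 and 7. The groups did not overlap, and Gata4 was lower in KI TAC hearts by -1.15 ± 0.30 (adjusted p = 0.0276 from limma). Within a genotype its log2 fold changes were 0.58 in WT (adjusted p = 0.216) and -0.59 in KI (adjusted p = 0.166), and the interaction was -1.17 ± 0.42 (adjusted p = 0.235). The call between KI TAC and WT TAC was lost in a fit of the 2 groups alone (adjusted p = 0.0815) and without WT TAC heart 7 (0.131), KI TAC heart 5 (0.0869) or KI TAC heart 6 (0.118).

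Nkx2-5, the homeobox factor that binds the NK2 motif, was 342, 355 and 223 RPKM in WT TAC hearts, and 126, 100.4 and 206 RPKM in KI TAC hearts. Against WT TAC hearts it was lower in KI TAC hearts by -1.12 ± 0.29 (adjusted p = 0.0268), and it fell in KI hearts by 0.93 ± 0.29 (adjusted p = 0.0311 from limma). Median-ratio scaling ended both calls (adjusted p = 0.0547 and 0.0691). The comparison with WT TAC was also lost in a fit of the 2 groups alone (0.0771) and without WT TAC heart 7 (0.119) or 9 (0.0542) or KI TAC heart 5 (0.0692) or 6 (0.122), and the fall in KI hearts without KI sham heart 1 (0.0677) or 2 (0.0973) or KI TAC heart 5 (0.0883) or 6 (0.123). KI TAC heart 7, the highest of its group for Nppa, was the highest of its group for Gata4 and Nkx2-5 too, whereas WT TAC heart 10, the highest of its group for Nppa, was the lowest for both. The comparisons of KI TAC with WT TAC share these hearts with the within-genotype comparisons.

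Nppa and Nppb were set beside genes within 100 kb of the interval from Nppb to Nppa. Plod1, 2510039O18Rik, Clcn6 and Agtrap did not pass the threshold in any comparison, with log2 fold changes of -0.16, -0.003, 0.03 and -0.50 in WT and -0.27, -0.83, -0.15 and -0.47 in KI, in that order. Mfn2, the gene of a mitochondrial fusion protein that lies 81.1 kb from the interval, fell in KI hearts by 0.54 (adjusted p = 0.0475), a call that was lost when any 1 of the 6 KI hearts was left out (0.0531 to 0.179), under median-ratio scaling (0.0985) and in a fit of the 2 groups alone (0.121). None of these 5 genes rose past the threshold in a comparison of TAC with sham, whereas Nppb rose in both genotypes and Nppa in WT hearts.

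Gm13054 is annotated on the strand opposite to Nppa and shares 532 of its 820 exon bases with it. It had 1 to 71 reads per heart, which was 0.11% to 1.19% of the reads of Nppa. Its level was 0.04 to 0.48 RPKM in sham hearts, 1.98 to 3.37 RPKM in WT TAC hearts and 0.40 to 1.47 RPKM in KI TAC hearts. It reached 1 RPKM in TAC hearts alone and entered the test only through them, so its calls are given as a description. Gm13054 rose in WT by 1.56 (adjusted p = 0.000647) and in KI by 0.70 (adjusted p = 0.0308). It was lower in KI TAC hearts than in those of the WT TAC group by -0.84 (adjusted p = 0.0268 from limma). The call in KI was lost without KI sham heart 1 (0.0928) or 3 (0.118) or KI TAC heart 6 (0.086) or 7 (0.107). The call between KI TAC and WT TAC was lost without WT TAC heart 7 (0.131) or KI TAC heart 5 (0.0827) or 6 (0.09), in a fit of the 2 groups alone (0.0858), with 0.1 RPKM added (0.115), under quantile normalization (0.0525) and in limma-voom (0.0949). As for Npr2, the reads of Nppa and of the gene opposite to it cannot be told apart with certainty without the strand setting.

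**Figure D5:**
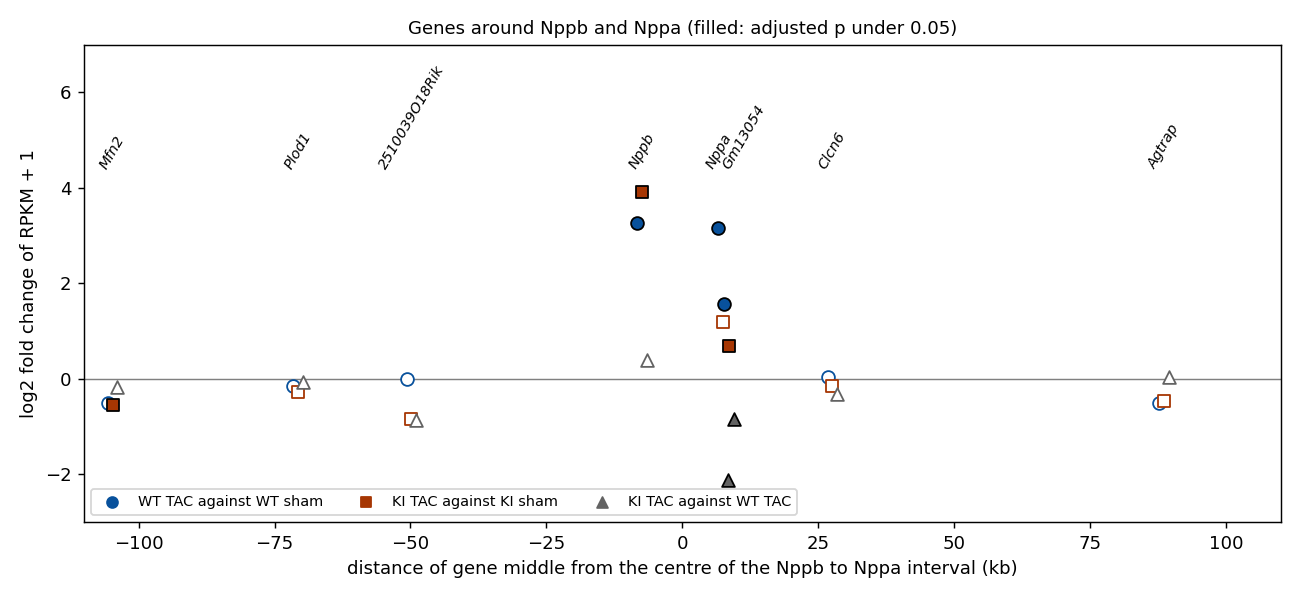
Log2 fold change of RPKM + 1 of Nppb, Nppa and 6 genes within 100 kb of the interval between them, against the distance of the gene's middle from the centre of the interval in kb, for 3 comparisons; filled symbols have an adjusted p under 0.05. The large positive values are those of Nppb and Nppa with the opposite-strand gene Gm13054, while the other 5 genes lie between -0.86 and 0.05.

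Genes whose levels over the 12 hearts were most like those of each member were sought as a description, with Pearson's r of log2(RPKM + 1); the hearts share groups, so a common response to TAC is enough to give a high r. For Nppa these included Ltbp2 (0.95), a matrix protein that binds microfibrils, and Nubp1 (0.95). For Nppb they were Plekho1 (0.97), Pfkp (0.97), the platelet form of phosphofructokinase, and Utp11 (0.96), a factor of ribosome assembly. With group means removed, the r of these 5 genes was 0.70 to 0.81. Npr2 was most like Pank1 (0.98), a kinase of coenzyme A synthesis, Pik3r2 (0.97) and Polrmt (0.97), the mitochondrial RNA polymerase, with 0.86 to 0.95 once group means had been removed. Npr1 was most like Josd1 (0.94), Dexi (0.92) and Phf1 (0.92), and Npr3 was most like Abhd6 (0.90), Myrf (0.87) and Deptor (0.87). Corin was most like Cdk19 (0.92), Dsg2 (0.89), a desmosomal cadherin of heart muscle, and Rapgef5 (0.88), and Furin was most like Brpf1 (0.96), Mast2 (0.94) and Midn (0.94). Between members, Npr1 and Npr2 had an r of 0.75, and 0.72 with group means removed, whereas Corin and Furin had an r of 0.04, and 0.37 with group means removed.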

How the data were processed

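RNA of 12 mouse hearts was extracted with TRIzol, selected for poly(A) in 2 rounds, made into directional libraries and sequenced from a single end over 75 bases, although the labels call the library paired-end. Per the labels and the study's methods, the authors trimmed the reads with Trimmomatic 0.39, aligned them with HISAT2 2.2.1 to GRCm38 and counted them on genes with HTSeq 0.6.1; edgeR 3.18.1 and limma 3.32.10 are named in the submitters' notes. The authors deposited 1 column of values per heart for 13552 genes. No source used here names their unit, and the deposited values were taken as RPKM, scaled by the authors, from the numbers themselves. The step from counts to RPKM, the gene filter and the strand setting are not given in the sources used here.

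Once scaled by the length of the exons, 94.9% to 97.8% of the low values of each heart equalled a whole number of reads (tolerance 0.05 reads), which gave the depth and the reads per gene; with a wrong step at most 17.2% were whole. The RPKM were analysed as log2(RPKM + 1), for the 11240 genes that reached 1 RPKM in 3 hearts or more, with limma 3.58.1 in R 4.3.3 (linear model of 4 groups, eBayes with trend, two-sided). P-values were adjusted over all genes tested by the Benjamini-Hochberg method, with a threshold of 0.05. A fold change is on this scale and understates changes of low genes. An exact permutation test of 3 against 3 hearts cannot go below p = 0.1, so none is given. The model was tested on simulated data first. Hearts were grouped by their genotype and treatment labels. Replicate libraries of a group had a Pearson r across genes of 0.957 to 0.993, and no 2 were identical.

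Promoter windows came from RefSeq (GRCm38.p6), and motifs were matched by letters on both strands. All 7 members are reported with every heart's value. From each pathway or marker list up to 6 genes past the threshold were named by size of change, with Mme and Pcsk6 as relatives of members, the tested genes within 100 kb of Nppb and Nppa, and the 3 genes most like each member, passing over predicted genes (2 genes that these rules name are not reported here); a few further list members were named after their values were seen. The members and lists were chosen with earlier results of these data known. Alternatives were 0.1 RPKM added, no filter, quantile normalization, median-ratio scaling, limma-voom with the reads so recovered, a fit of 2 groups, an adjusted p of 0.10, the mouse number as a block, and leaving out each heart. Tables and plots were made in Python 3.11.15 with numpy 2.4.6, pandas 2.3.3 and matplotlib 3.10.9.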

Additional observations from a re-analysis of the deposited data

How the results depend on the processing

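The 2 members past the threshold in WT hearts, Nppa and Nppb, were called under all 13 alternatives run, as was Nppb in KI hearts. In KI hearts the count of 2 ranged from 1 to 2 when a heart was left out, because Npr2 was lost without KI sham heart 3 or KI TAC heart 5. Between KI TAC and WT TAC the count of 1 ranged from 0 to 2 when a heart was left out and was 0 in a fit of the 2 groups alone, where Nppa had an adjusted p of 0.0682; its log2 fold change was -2.63 to -1.70 over the alternatives, with an adjusted p of 0.00701 to 0.103. With each heart left out, the counts stayed at 2 in WT hearts and at 0 between the sham groups and for the interaction. The sham groups share mouse numbers 1, 2 and 3, and the deviations of same-numbered hearts from their group means had correlations across genes of -0.22, -0.30 and 0.44, so that hearts 3 deviated together and hearts 1 and 2 did not. With the number as a replicate block the count between the sham groups stayed at 0 members, and 0 of all genes were called in place of 2. Over the members and Pcsk6, 527 fold changes kept their direction and their side of the threshold, 33 that were never past it turned in sign, 7 lost and 1 gained a call, and no called value reversed. Values short of the threshold moved more: Nppb was 0.01 to 0.60 over the alternatives between KI TAC and WT TAC. Npr3 had the fewest reads of the members (129 to 562), and Gm13054 had fewer still (1 to 71). The part of depth in their results was not tested. Over all genes, the count called in WT hearts was 1299, and it was 863, 646 and 677 without WT sham heart 1, 2 or 3. It was 596 without WT TAC heart 7 and rose to 1525 without WT TAC heart 10. The count in KI hearts was 2620, with 1453 without KI sham heart 3 and 2741 without KI TAC heart 7.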

Other observations

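The marker lists gave the following values beside the ligand genes, with each p adjusted in limma. The 3 neutrophil markers tested reached 1 RPKM in TAC hearts alone. They entered the test only through those hearts, so the counts of calls are a description and no support for a rise. Of the 3, 2 were called higher in WT hearts and 3 in KI hearts, beside 6.96% and 8.57% of all genes. S100a9, a calcium-binding protein abundant in neutrophils, rose on the log2 scale by 2.77 in KI hearts (adjusted p = 0.000228), and S100a8, its partner, rose by 1.91 (adjusted p = 0.00254), both under the 13 alternatives run. In WT hearts S100a9 rose by 1.58 (adjusted p = 0.0137), a call lost without WT sham heart 2 (0.0514) or 3 (0.0513) or WT TAC heart 9 (0.0507). Csf3r, the receptor of a neutrophil growth factor, rose by 0.86 in WT (adjusted p = 0.0146; 0.0554 without WT sham heart 3 and 0.0517 without WT TAC heart 9). In KI it rose by 0.63 (adjusted p = 0.0363), a call lost without KI sham heart 1 (0.0657), 2 (0.112) or 3 (0.0688) or KI TAC heart 5 (0.138, at a log2 fold change of 0.37) or 6 (0.0656). The summed neutrophil markers were 3.69 to 9.87 RPKM in WT TAC and 4.18 to 20.3 RPKM in KI TAC hearts, against 0.39 to 1.27 RPKM in the 6 sham hearts.

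Of the 4 macrophage markers tested, 2 rose in WT hearts, beside 6.96% of all genes. Cd68, a lysosomal protein of macrophages, rose by 1.22 (adjusted p = 0.00601) under every alternative run. Adgre1, which encodes the F4/80 antigen, rose by 0.83 (adjusted p = 0.0409), a call lost in a fit of the 2 groups alone (0.0778) and without WT sham heart 1 (0.0995), 2 (0.106) or 3 (0.0896) or WT TAC heart 10 (0.0896, at 0.49). In KI hearts 0 macrophage markers were called higher, although 2 of the 4 had a log2 fold change above 0. These were Cd68, at 6.22 to 6.33 RPKM in KI sham and 7.18 to 14.7 RPKM in KI TAC hearts, and C1qa. C1qa was 13.5 to 19.6 RPKM in KI sham and 20.3 to 23.6 RPKM in KI TAC hearts, and neither gene overlapped between the groups. Csf1r, the receptor of a macrophage growth factor, fell by 0.53 (adjusted p = 0.0419), where 14.7% of all genes fell. This call was lost without any 1 of the 6 KI hearts (0.0593 to 0.13), under quantile normalization (0.0541) and median-ratio scaling (0.0893) and in a fit of the 2 groups (0.0735). Between KI TAC and WT TAC hearts Adgre1 and Csf1r were the 2 macrophage markers called lower, beside 8.13% of all genes.

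The ventricular and cardiomyocyte markers went in both directions between KI TAC and WT TAC hearts, where 2.92% of all genes were called higher and 8.13% lower, a split that turned with the scaling of the libraries (26.4% of calls higher as deposited and 58.6% after median-ratio scaling). Of the 3 ventricular markers tested, Irx4, a transcription factor of ventricular muscle, was lower by -1.60 in KI TAC hearts (adjusted p = 0.00582) and fell in KI hearts by 1.32 (adjusted p = 0.00339), with both calls kept under the 13 alternatives. Myl2, the ventricular myosin light chain, was higher by 0.86 in the same KI TAC hearts (adjusted p = 0.0447), a call lost without any 1 of the 6 hearts (0.0571 to 0.159), with no filter (0.0595) and under quantile normalization (0.111). Of 6 cardiomyocyte markers 2 were higher in that comparison, Tnni3 by 0.95 (adjusted p = 0.0384) and Mb by 0.84 (adjusted p = 0.0498). Tnni3 was lost under quantile normalization (0.0615) and without WT TAC heart 7 (0.129) or 10 (0.0938) or KI TAC heart 5 (0.0617), 6 (0.138) or 7 (0.0567), and Mb without any 1 of the 6 hearts (0.053 to 0.165) and under quantile normalization (0.172), with 0.1 RPKM added (0.0502), with no filter (0.0688) and in a fit of the 2 groups (0.0543). In WT hearts 2 of the 6 fell, beside 4.6% of all genes. Myh6, the main myosin heavy chain of the adult mouse heart, fell by 1.15 (adjusted p = 0.0129; 0.111 under quantile normalization and 0.072 without WT TAC heart 7). Mb fell by 0.88 (adjusted p = 0.0382; 0.273 under quantile normalization, 0.0567 with no filter and 0.0583 to 0.111 without any 1 of the 6 WT hearts). In KI hearts 0 of the 6 passed the threshold, and 0 had an unadjusted p under 0.05.

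Of 6 fibroblast markers 0 passed it in WT hearts, where 2 had an unadjusted p under 0.05. In KI hearts Lum, a matrix proteoglycan, fell by 1.14 (adjusted p = 0.0476), a call lost without any 1 of the 6 KI hearts (0.0774 to 0.133), with no filter (0.0535), under quantile normalization (0.0706) and under median-ratio scaling (0.0629). Of 6 smooth muscle and pericyte markers, 3 had a log2 fold change above 0 in each genotype, and none was called higher. Acta2 was 27.8 to 39.5 RPKM in WT sham and 48.8 to 116 RPKM in WT TAC hearts, without overlap. Pdgfrb did not overlap either, at 44.3 to 52.3 RPKM in WT sham and 52.5 to 71.6 RPKM in WT TAC hearts. Abcc9, a potassium channel subunit, fell in both genotypes, where 4.6% (WT) and 14.7% (KI) of all genes fell. In WT it fell by 0.83 (adjusted p = 0.0471), a call lost under quantile normalization (0.0818) and median-ratio scaling (0.0565) and without WT sham heart 1 (0.0512), 2 (0.142) or 3 (0.135) or WT TAC heart 7 (0.157) or 9 (0.115). In KI it fell by 0.89 (adjusted p = 0.021), a call lost under median-ratio scaling (0.0725) and without KI sham heart 1 (0.0727) or 3 (0.0845) or KI TAC heart 7 (0.0719). None of the 6 endothelial and none of the 4 red blood cell markers passed the threshold in either genotype by limma, while at an unadjusted p under 0.05 there were 0 endothelial and 2 red blood cell markers in WT hearts and 1 of each in KI hearts, and limma-voom called 1 endothelial marker in KI hearts. Marker lists of adipocytes and lung epithelium were not analysed here.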
